A study of Caenorhabditis elegans with 20 samples.

Results

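The mRNAs of egl-1, let-60, die-1, nhr-25, pha-4, mef-2 and unc-29 were followed through immunoprecipitates of AIN-1 and AIN-2. They come from 7 Caenorhabditis elegans genes described as microRNA targets and not grouped here with the heterochronic genes of developmental timing. The genes were chosen by symbol in the array's probe table, in which they hold 7 of 17461 features with a gene and make up 7 of 16378 genes. Each had 1 feature, and 7 of 7 passed the filter on low signal, as did 12222 features in all. RNA from 20 samples of mixed-stage whole worms was amplified and hybridised to spotted DNA arrays with Cy3 or Cy5, and the question asked was which mRNAs are bound by the AIN proteins. Wild-type N2 worms gave immunoprecipitates (IPs) with antibody to AIN-1 (n = 3) and, as a control, with preimmune serum (n = 3). GFP was precipitated from worms of a single-copy integrated AIN-2::GFP line, line A (n = 3), and from a control injection line with the ain-2 promoter driving GFP (n = 3). RNA of whole lysates, called total RNA, was taken from N2 (n = 2), from the AIN-2::GFP line (n = 3) and from the promoter GFP line (n = 3). Each transgene is represented by 1 line, and AIN-1 was precipitated without a transgene, so that the AIN-1 and AIN-2 experiments differ in strain and in antibody.

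AIN-1 and AIN-2 are GW182-family proteins that bind the microRNA Argonautes and bring the repression machinery to target mRNAs, so an mRNA held in a microRNA complex can be recovered by precipitating them. egl-1 encodes the BH3-only protein that starts programmed cell death and is a described target of the miR-35 and bantam families. let-60 encodes Ras, and with nhr-25, a nuclear receptor of moulting and epidermis, and pha-4, the FoxA factor of pharynx identity, it has been described as a target of the let-7 family. die-1 encodes a zinc-finger factor of the left-right difference between the ASE taste neurons and is a described target of miR-273. The transcription factor gene mef-2 and the acetylcholine receptor subunit gene unc-29 are described targets of miR-1 in muscle and at the neuromuscular junction.

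The control IPs gave little signal, with the exception of GFP IP replicate 1. Mean signal was 9, 40 and 47 scanner units in the preimmune IP and 370, 46 and 12 in the GFP IP, against 241 to 907 in the other 14 samples. Signals were quantile normalized across samples, so that all 20 share 1 distribution in units of the sample mean, and values under 0.0187 sample means were set to that floor. A background limit was taken in each sample from chemoreceptor gene features, and the share of features that exceeded it was as low as 35.4% in the preimmune IP, 40.8% in the GFP IP and 46.0% in the other samples. The AIN-1 IP held more ain-1 mRNA than its N2 input did, by 2.08 ± 0.56 on the log2 scale (limma, adjusted p = 0.0256). That does not check the labels, since an mRNA level cannot show which protein was precipitated. In the same comparison alg-2 lay at 1.58 ± 0.40 (limma, adjusted p = 0.0184) and alg-1 at -1.67 ± 0.83 (adjusted p = 0.216). alg-1 was above the limit in 0 of 3 AIN-1 IP samples. Differences are on that scale with their standard errors, from limma fitted to all features and samples, with p-values adjusted over 12222 features and 0.05 as the threshold. In whole worms a lower signal from fewer cells of a type and one from less RNA per cell cannot be told apart. The markers of pharynx and body wall muscle differed among the inputs, with a myo-2 geometric mean of 6.02 sample means in N2 total RNA and 0.64 and 0.56 in the AIN-2::GFP and promoter GFP totals. The part of this difference in the results for pha-4, mef-2 and unc-29 was not tested.

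Against total RNA, 7 of 7 fitted differences lay above 0 in each AIN IP, 5 of 7 in the GFP IP and 3 of 7 in the preimmune IP. The baselines of these counts differed, as the median of all features was 0.11 in the AIN-1 IP and -0.00 in the AIN-2::GFP IP. It was -0.22 in the GFP IP and -0.41 in the preimmune IP. Shares of all features are not given for counts above 0 or for counts at an unadjusted p under 0.05. In the AIN-1 IP all 3 samples exceeded both N2 total RNA samples for 7 of 7 genes, where 34.6% of all features did so. None passed the threshold in limma (1 at an unadjusted p under 0.05), where 6.1% of all features were called higher and 5.65% lower, or 1.88% and 14.9% with scaling to the sample mean in place of quantile normalization. The median difference was 0.80 over the 7 genes and 0.11 over all features. In the AIN-2::GFP IP all 3 samples exceeded the 3 samples of the strain's total RNA for 6 genes, unc-29 being the exception, where 21.3% of all features did so. None passed in limma (4 at an unadjusted p under 0.05) while 2.79% of all features were called higher and 2.72% lower (1.21% and 3.5% with mean scaling), and mef-2, die-1 and egl-1 had adjusted p-values of 0.0575, 0.0666 and 0.0706. The median difference was 1.32 over the 7 genes and -0.00 over all features. In the GFP IP 0 of 7 genes had samples all above those of the promoter GFP total, where 5.31% of all features did, and 0 were called or had an unadjusted p under 0.05 in limma (0.00818% of all features called higher and 0.0164% lower). Their median difference was 0.14, beside -0.22 over all features.

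Of the 7 genes, in the AIN-1 IP only egl-1 passed over the preimmune IP, where 9.44% of all features were called higher and 2.36% lower (10.7% and 4.81% with mean scaling). Its samples, and those of die-1 and unc-29, did not overlap the preimmune samples, as was the case for 23.1% of all features on the higher side. The median difference was 1.34, beside 0.42 over all features, and 3 genes had an unadjusted p under 0.05. With the replicate number as a random pair, die-1 passed beside egl-1 (15.1% of all features called higher). In the AIN-2::GFP IP none passed over the GFP IP in limma (3 at an unadjusted p under 0.05), where 2.97% of all features were called higher and 1.27% lower (0.605% and 0.565% with mean scaling). With the replicate pair egl-1 and mef-2 passed (5.8% of all features called higher). The samples of egl-1, let-60, die-1, nhr-25 and mef-2 did not overlap, compared with 15.2% of all features. Set against N2 total RNA, the preimmune IP called none in limma (2 at an unadjusted p under 0.05), while 3.89% of all features were called higher and 9.17% lower (2.27% and 19.7% with mean scaling). Its samples exceeded both N2 samples for let-60 alone among the 7, and for 11.6% of all features. Both IPs of N2 worms share the N2 total RNA samples, and the comparisons of an IP with its total and with its control IP share the IP samples, so they are not independent of each other.

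**Figure D1:**
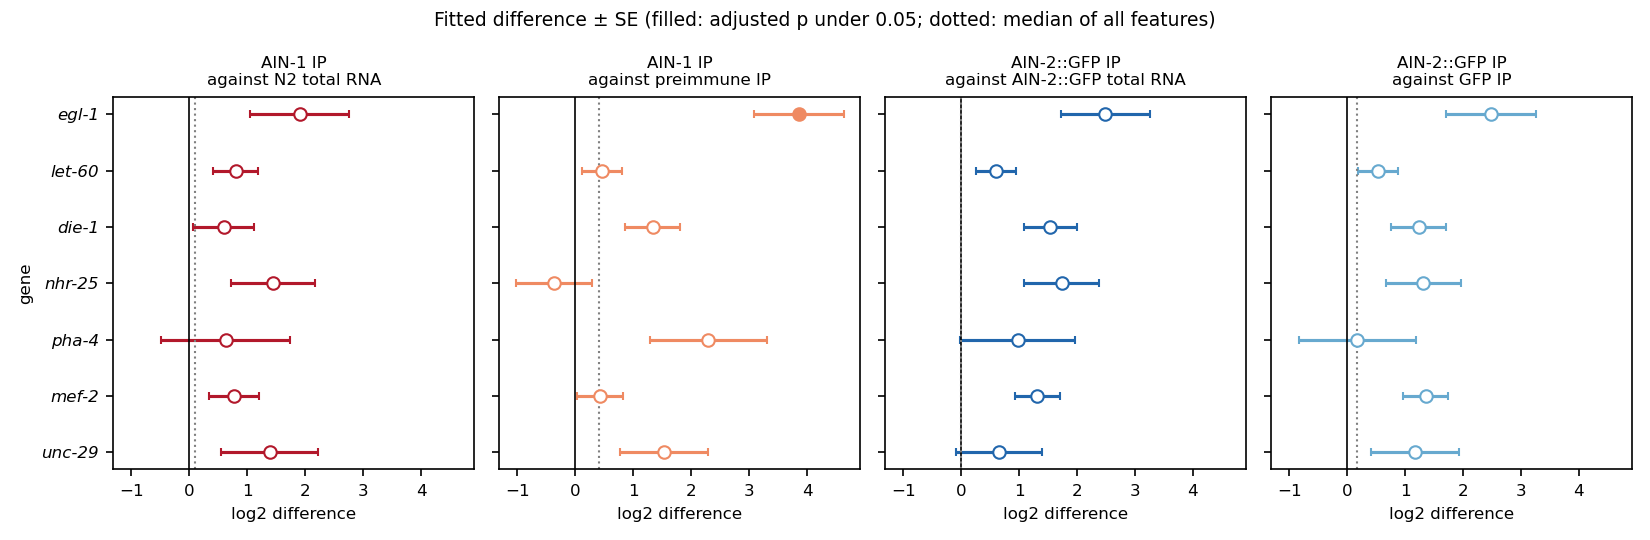
Log2 differences fitted by limma (horizontal axis, with standard error bars) for the 7 genes in 4 comparisons of the AIN IPs with total RNA or with the control IP, filled where the adjusted p is under 0.05 and with a dotted line at the median of all features. Only egl-1 against the preimmune IP is filled, at 3.86, and nhr-25 in the same panel lies at -0.37, a sign that turns with mean scaling and without preimmune replicate 1.

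The cell death activator egl-1 had the largest fitted differences of the 7 genes in the AIN-1 and AIN-2::GFP IPs, against total RNA and against the control IPs. Its normalized intensity was 0.713, 0.740 and 1.40 sample means in the AIN-1 IP and 1.45, 1.47 and 0.997 in the AIN-2::GFP IP. It was 0.214 and 0.223 in N2 total RNA, 0.249, 0.202 and 0.237 in the AIN-2::GFP total and 0.172, 0.258 and 0.185 in the promoter GFP total. It was 0.252, 0.264 and 0.0999 in the GFP IP, and 0.376 in preimmune replicate 2, while preimmune replicates 1 and 3 lay at the floor of 0.0187. All 6 AIN samples therefore stood above all 14 others, and the 3 total RNA groups overlapped. The deposited signal behind these values was 371 to 1163 scanner units in the AIN-1 IP and -4, 14 and 0 in the preimmune IP.

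In limma egl-1 exceeded the preimmune IP by 3.86 ± 0.78 in the AIN-1 IP (adjusted p = 0.00564). This call rests on preimmune samples with a within-group SD of 2.50, beside 0.05 to 0.79 in the other groups, and with the limit exceeded in 1 of 3. Because the other preimmune values were set to the floor, the size of the difference depends on where the floor lies, and it was 2.94 with a floor at the 25th percentile. A limma fit to the 6 samples of these IPs alone gave 3.36 with an adjusted p of 0.329, and 0 of 12222 features passed it. With the replicate number as a random pair, the value was 3.85 (adjusted p = 0.00139). Against total RNA the differences were 1.90 ± 0.85 in the AIN-1 IP (limma, adjusted p = 0.168) and 2.49 ± 0.76 in the AIN-2::GFP IP (adjusted p = 0.0706). In the preimmune IP egl-1 lay at -1.95 ± 0.85 against N2 total RNA (limma, adjusted p = 0.138). The AIN-2::GFP IP exceeded the GFP IP by 2.48 ± 0.78 for egl-1 (limma, adjusted p = 0.0885), and with the replicate pair 2.47 (adjusted p = 0.0342), a setting in which 5.8% of all features were called higher. Replicate 3 of the GFP IP was below its background limit for egl-1, and that sample also had the lowest mean signal of its group, 12 scanner units.

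**Figure D2:**
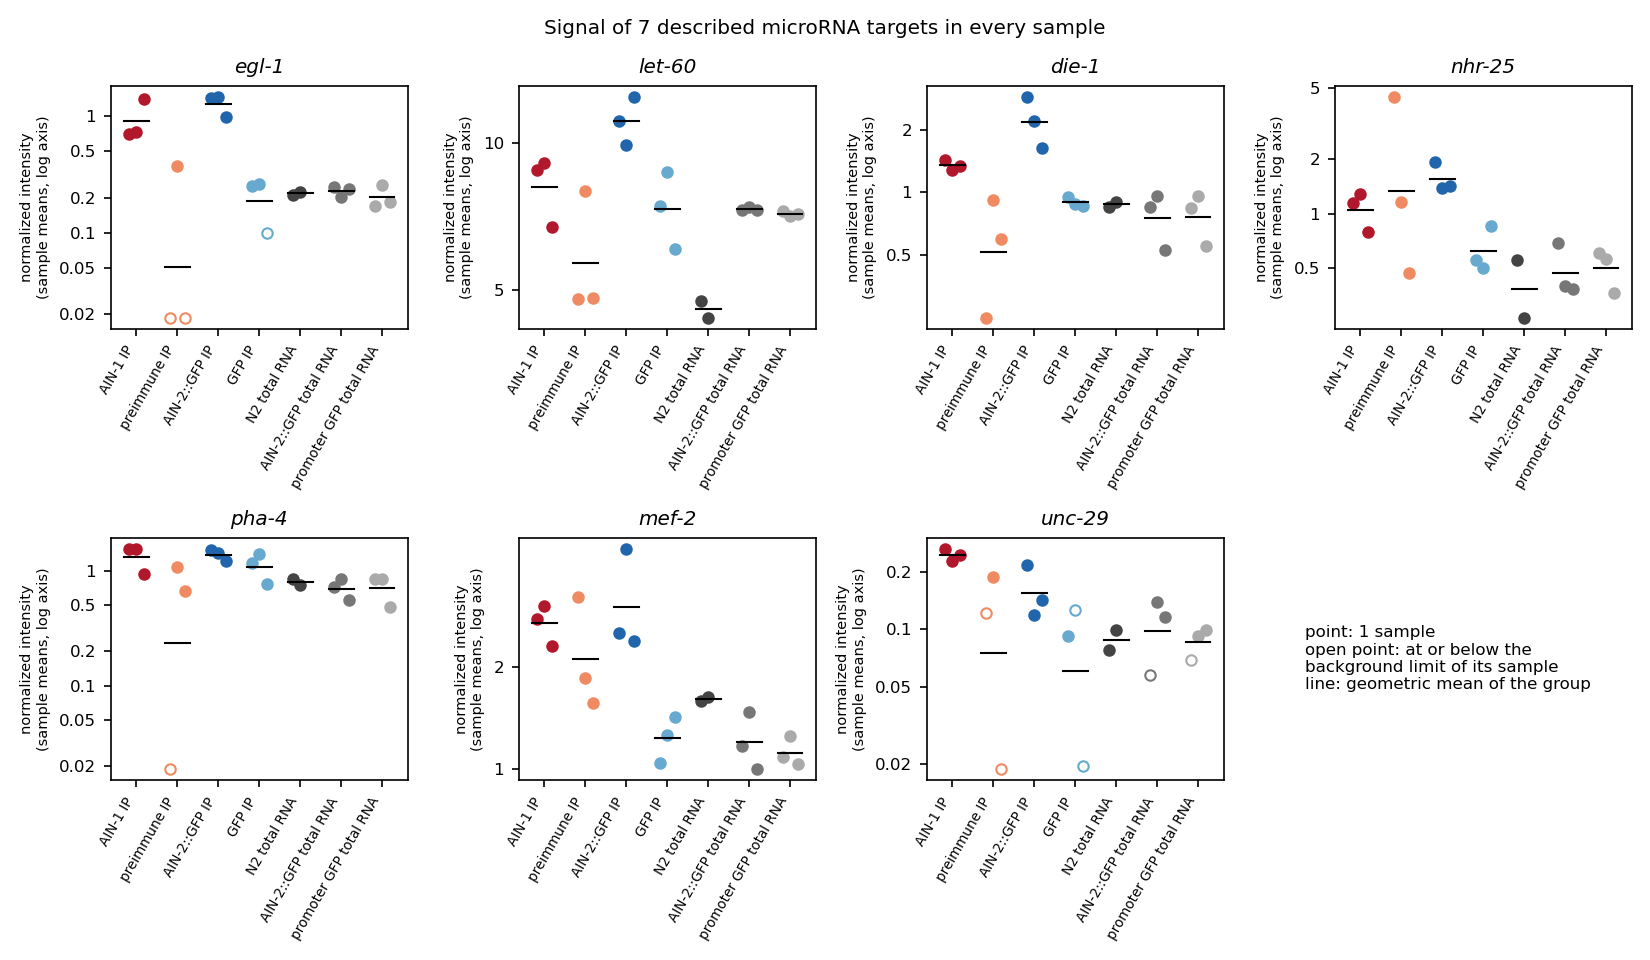
Normalized intensity in sample means (vertical log axes, each with its own range) of the 7 genes in each of the 20 samples, with open points at or below the background limit and a line at the geometric mean of each group. The AIN samples of egl-1 lie between 0.713 and 1.47, above all other samples, and the open preimmune points of egl-1 lie at the floor of 0.0187.

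let-60, the Ras gene, was well above background in every sample. It measured 8.79, 9.08 and 6.73 sample means in the AIN-1 IP, 4.80, 7.95 and 4.82 in the preimmune IP and 11.1, 9.87 and 12.4 in the AIN-2::GFP IP. It measured 7.44, 8.71 and 6.08 in the GFP IP, 7.27, 7.38 and 7.29 in the AIN-2::GFP total and 7.26, 7.08 and 7.16 in the promoter GFP total. N2 total RNA, at 4.75 and 4.39, was lowest of the 7 groups, and the AIN-2::GFP IP was highest without overlap with any other. The difference of the AIN-1 IP from N2 total RNA was 0.80 ± 0.38 (limma, adjusted p = 0.197) and its value was 0.14 (adjusted p = 0.793) when the AIN-1 IP was set against the transgenic totals. Over the preimmune IP let-60 differed by 0.46 ± 0.35 (limma, adjusted p = 0.408). That difference depended on the scaling, at 1.49 with mean scaling (limma, adjusted p = 0.0437) and -0.01 with cyclic loess (adjusted p = 0.99). Over the GFP IP the AIN-2::GFP IP differed by 0.54 ± 0.35 for let-60 (limma, adjusted p = 0.459).

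die-1, the zinc-finger gene of the ASE circuit, was above its limit in every sample after normalization. Its deposited preimmune signal was 2, 32 and 18 scanner units. The 2 units of replicate 1 lay below a limit of 4 units set in the same way on that sample's deposited values. The AIN-1 IP samples measured 1.43, 1.28 and 1.34 sample means and the AIN-2::GFP IP samples 2.89, 2.22 and 1.64. The preimmune IP gave 0.248, 0.916 and 0.595 and the GFP IP 0.952, 0.874 and 0.858. The totals lay at 0.854 and 0.898 in N2, 0.847, 0.956 and 0.528 in AIN-2::GFP worms and 0.838, 0.957 and 0.552 in promoter GFP worms. Each AIN sample therefore exceeded each control and total sample. Over the preimmune IP the AIN-1 difference of die-1 was 1.34 ± 0.47 (limma, adjusted p = 0.0786), and 1.33 with the replicate pair (adjusted p = 0.0330), with 15.1% of all features called higher in that setting. It too depended on the scaling, at 1.56 with mean scaling (limma, adjusted p = 0.0458) and 0.48 with cyclic loess (adjusted p = 0.512). Over its total RNA the AIN-2::GFP IP was 1.54 ± 0.46 higher (limma, adjusted p = 0.0666), and over the GFP IP 1.23 ± 0.47 higher (adjusted p = 0.174). Against N2 total RNA the AIN-1 difference was 0.59 ± 0.52 (limma, adjusted p = 0.520).

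nhr-25, the nuclear receptor gene of epidermis and moulting, had preimmune values of 4.43, 1.15 and 0.470 sample means after normalization. Replicate 1, the highest of all samples on that scale, came from the array with a mean of 9 scanner units. Its deposited signal was 13 scanner units, or 1.44 sample means, under the deposited 2.36 of AIN-2::GFP IP replicate 1. For mef-2, too, normalized preimmune replicate 1 exceeded every AIN-1 IP sample. In the AIN-1 IP nhr-25 measured 1.15, 1.29 and 0.789, so the preimmune and AIN-1 samples overlapped. The limma difference was -0.37 ± 0.65 (adjusted p = 0.751), the only one of the 7 below 0 in this comparison. Its sign turned without preimmune replicate 1, to 0.47 (limma, adjusted p = 0.541), and with mean scaling, to 0.27 (adjusted p = 0.795). In the AIN-2::GFP IP it measured 1.94, 1.40 and 1.42, beside 0.552, 0.499 and 0.858 in the GFP IP. The totals were 0.556 and 0.265 in N2, 0.689, 0.397 and 0.381 in AIN-2::GFP worms and 0.608, 0.561 and 0.365 in promoter GFP worms, below every AIN-2::GFP IP sample. Its differences over total RNA were 1.45 ± 0.72 in the AIN-1 IP (limma, adjusted p = 0.217), 1.81 ± 0.72 in the preimmune IP (adjusted p = 0.105) and 1.73 ± 0.64 in the AIN-2::GFP IP (adjusted p = 0.135). Over the GFP IP the AIN-2::GFP IP was 1.32 ± 0.65 higher (limma, adjusted p = 0.313).

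pha-4, the pharynx identity gene, did not separate the AIN-2::GFP IP from the GFP IP. It measured 1.55, 1.56 and 0.930 sample means in the AIN-1 IP, 1.52, 1.42 and 1.21 in the AIN-2::GFP IP and 1.16, 1.40 and 0.767 in the GFP IP, so the last pair overlapped and differed by 0.18 ± 1.01 (limma, adjusted p = 0.962). The preimmune IP gave the floor in replicate 1 and 1.07 and 0.661 in the others, with an SD of 3.19 on the log2 scale. The totals ran from 0.484 to 0.856. The AIN-1 IP was 2.30 ± 1.01 higher than the preimmune IP (limma, adjusted p = 0.147), and over N2 total RNA 0.63 ± 1.11 higher (adjusted p = 0.783). The AIN-1 difference over the preimmune IP depended on single preimmune samples: it was 0.62 without replicate 1, the sample at the floor (limma, adjusted p = 0.324), and 3.53 without replicate 2 (adjusted p = 0.0281).

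The muscle factor gene mef-2 measured 2.76, 3.03 and 2.31 sample means in the AIN-1 IP and 2.52, 4.45 and 2.39 in the AIN-2::GFP IP. Its preimmune values of 3.21, 1.85 and 1.57 overlapped those of the AIN-1 IP, and the GFP IP values of 1.04, 1.26 and 1.42 lay under every AIN-2::GFP IP value. The totals were 1.59 and 1.63 in N2, 1.17, 1.47 and 1.00 in AIN-2::GFP worms and 1.08, 1.25 and 1.03 in promoter GFP worms. The AIN-2::GFP IP thus separated from both of its references, while the AIN-1 IP separated from its total RNA only. The AIN-2::GFP difference was 1.32 ± 0.38 over total RNA (limma, adjusted p = 0.0575) and 1.36 ± 0.39 over the GFP IP (adjusted p = 0.0651), which with the replicate pair stood at 1.36 and passed (adjusted p = 0.0206). Over N2 total RNA the AIN-1 IP was 0.78 ± 0.43 higher (limma, adjusted p = 0.273). Set against the transgenic totals it rose by 1.25 (adjusted p = 0.0195), where 7.57% of all features were called higher. Over the preimmune IP mef-2 was 0.43 ± 0.39 higher (limma, adjusted p = 0.499).

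unc-29, the levamisole-sensitive receptor subunit gene, was at or below the background limit in 6 of 20 samples. The AIN-1 IP measured 0.264, 0.228 and 0.245 sample means, each above its limit and above all other samples. The preimmune IP gave 0.121, 0.187 and the floor, with replicates 1 and 3 at or below the limit, and the GFP IP gave 0.0920, 0.126 and 0.0195 with replicates 2 and 3 at or below it. The AIN-2::GFP IP gave 0.217, 0.119 and 0.142, which overlapped the AIN-2::GFP total at 0.0582, 0.138 and 0.117. N2 total RNA measured 0.0784 and 0.0998, and the AIN-1 IP differed from it by 1.39 ± 0.84 (limma, adjusted p = 0.319). Its difference from the preimmune IP was 1.54 ± 0.76 (limma, adjusted p = 0.197). The AIN-2::GFP IP was 0.66 ± 0.75 higher than its total (limma, adjusted p = 0.671) and 1.17 ± 0.76 higher than the GFP IP (adjusted p = 0.457).

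Signal at all spots of cdc-42 and asp-6 together exceeded the limit in the AIN-1 IP, the preimmune IP and replicate 1 of both GFP IPs. In the other samples, which include all total RNA, not every such spot did. The distinction varied within a group only in the AIN-2::GFP and GFP IPs. Its term in the fit is therefore estimated from replicate 1 against replicates 2 and 3 of those IPs. The labels do not say which samples shared a print run or array, and the part of this signal in the results was not tested. With that distinction as a term, the 7 differences of the AIN-1 IP from N2 total RNA ran from 0.23 to 1.45, with 7 of 7 above 0 and none passing in limma (0 at an unadjusted p under 0.05), and those of die-1 and unc-29 were 0.23 and 0.57 in place of 0.59 and 1.39. The median of all features was then -0.07.

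The enrichment of AIN-2::GFP over its total minus that of GFP over its total, tested directly, was above 0 for 7 of 7 genes and passed for none in limma (2 at an unadjusted p under 0.05). The median was 1.18 over the 7 genes and 0.17 over all features. Values were 2.59 ± 1.08 for egl-1 (limma, adjusted p = 0.508), 1.31 for die-1 (adjusted p = 0.659) and 1.18 for mef-2 (adjusted p = 0.603), beside 0.00818% of all features called higher and 0.0164% lower. The AIN-1 enrichment minus the AIN-2::GFP enrichment, a comparison added after the data had been seen, ran from -0.95 for die-1 to 0.73 for unc-29, and none passed in limma (0 at an unadjusted p under 0.05, all 7 adjusted p-values 0.9995), with 0.00818% of all features called lower.

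The study's own rule, taken from its design text, gave another count. For each IP replicate the ratio of an mRNA to the mean total RNA of its strain was ranked as a percentile over the 12222 features kept. The mean of the replicates' ranks was set against the mean rank by the methods' t-test, applied one-sided, at 0.01. Association, as counted here, also required the control IP to fail and a mean log2 IP signal above the mean background limit. In the AIN-1 IP the mean rank was 89.1 ± 6.28 (SD) for egl-1, 85.2 for let-60, 82.3 for nhr-25, 78.4 for mef-2, 77.0 for unc-29 and 71.6 for die-1, all of which passed, as did 24.2% of all features. pha-4, at 72.7 ± 11.1 (SD), did not pass, with replicate ranks of 78.4, 79.7 and 59.9. In the AIN-2::GFP IP the mean rank was 96.5 ± 0.70 (SD) for egl-1, 92.0 for nhr-25, 89.7 for die-1, 87.6 for mef-2, 81.0 for pha-4 and 79.1 for let-60, and 65.4 ± 13.6 (SD) for unc-29, the one of the 7 that did not pass, beside 14.4% of all features that did. The control IPs passed for none of the 7, beside 8.08% of all features in the preimmune IP and 5.53% in the GFP IP. A wide spread of the replicates can fail this test, so a fail does not show that enrichment is absent. The preimmune ranks of unc-29 were 71.1, 79.0 and 16.8, from 1, 8 and -1 scanner units. Not every control rank was low. The preimmune mean rank of nhr-25 was 73.6 (replicates 83.9, 81.0 and 55.8), above the 71.6 of die-1 in the AIN-1 IP. The GFP IP mean rank of pha-4 was 70.6 (replicates 84.7, 67.3 and 59.7). Mean ranks of the other genes ran from 30.9 to 63.1 in the preimmune IP and from 47.1 to 57.6 in the GFP IP. The design rule thus took 6 of 7 genes as associated with AIN-1, where 18.1% of all features were, and 6 of 7 with AIN-2, where 12.0% of all features were. For AIN-1, limma calls both over total RNA and over the preimmune IP took 0 of 7, beside 2.59% of all features. For AIN-2 the 2 calls required were over total RNA and in the AIN-2::GFP enrichment minus the GFP enrichment. These took 0 of 7, beside 0.00818% of all features. The rules thus differ, as that second comparison alone called 0.00818% higher, where the AIN-2::GFP IP over the GFP IP called 2.97%.

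**Figure D3:**
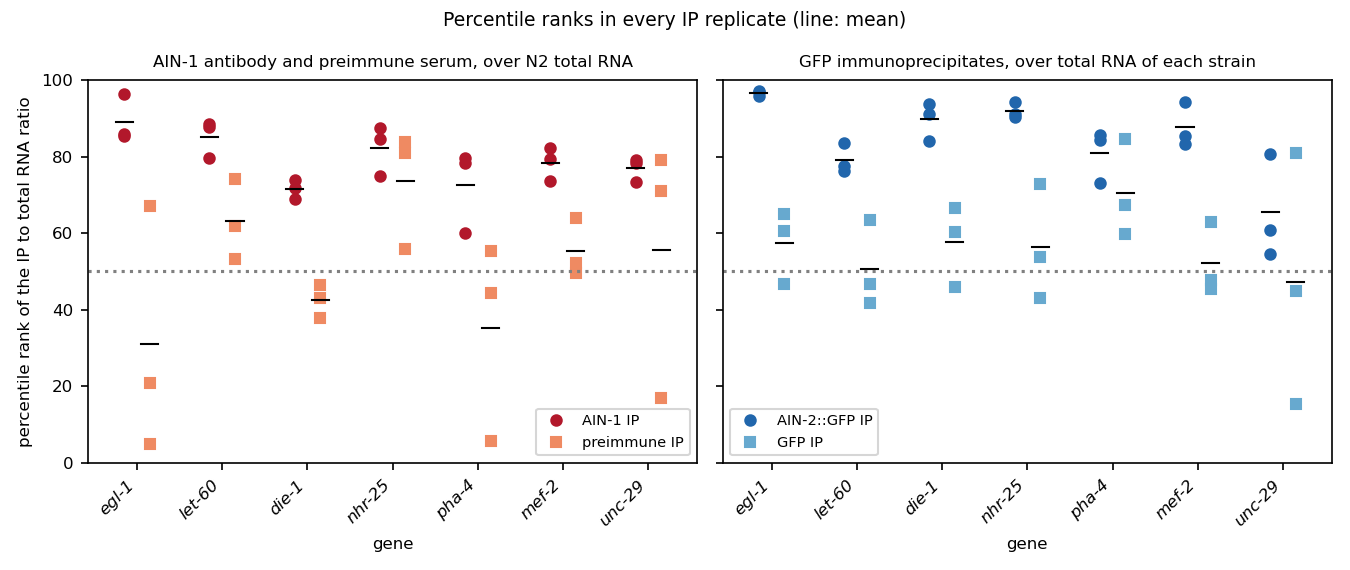
Percentile rank of the IP to total RNA ratio (vertical axis, 0 to 100) of the 7 genes in each IP replicate, with lines at the means and a dotted line at 50, for the N2 worms on the left and the GFP worms on the right. egl-1 has mean ranks of 89.1 and 96.5 in the AIN IPs, while its preimmune ranks spread from 5.01 to 67.1.

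Genes of the same pathways, taken from lists by function, were described alongside by their counts. The shares of all features called higher and lower were 6.1% and 5.65% in the AIN-1 IP, 3.89% and 9.17% in the preimmune IP and 2.79% and 2.72% in the AIN-2::GFP IP, each against total RNA. Genes with more than 1 feature were represented by their brightest. Of 19 measured cell death genes besides egl-1, 2 rose and 1 fell in the AIN-1 IP against N2 total RNA, namely the transcription factor gene ces-2 (2.01 ± 0.53, adjusted p = 0.0236), the engulfment gene ced-5 (1.51 ± 0.39, adjusted p = 0.0206) and the nuclease gene crn-2 (-2.95 ± 0.63, adjusted p = 0.00805) in limma. In the preimmune IP 1 rose and 1 fell, and in the AIN-2::GFP IP none passed in limma (4 at an unadjusted p under 0.05). Of 17 Ras pathway genes 3 rose and 2 fell in the AIN-1 IP, and 1 rose and 1 fell in each of the preimmune and AIN-2::GFP IPs. The phosphatase gene dep-1 rose by 2.49 ± 0.47 there and by 1.79 ± 0.42 in the AIN-2::GFP IP (limma, adjusted p = 0.00369 and 0.0218). The GTPase gene ral-1 lay at -3.93 ± 0.96 and -3.11 ± 0.86 (limma, adjusted p = 0.0164 and 0.0459). Of 11 genes of ASE neuron fate none passed in either AIN IP against total RNA by limma (1 at an unadjusted p under 0.05 in the AIN-1 IP and 2 in the AIN-2::GFP IP), while 1 rose and 2 fell in the preimmune IP.

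Of 17 epidermis and moulting genes, 3 rose and 2 fell in the AIN-1 IP, 2 rose and 5 fell in the preimmune IP and 1 rose in the AIN-2::GFP IP. Those in the AIN-1 IP included the GATA factor gene elt-1 at 2.09 ± 0.51 (limma, adjusted p = 0.0168) and mlt-8 at -4.10 ± 0.70 (adjusted p = 0.00213). Of 19 pharynx genes 1 rose and 5 fell in the AIN-1 IP, 4 fell in the preimmune IP and none passed in the AIN-2::GFP IP (limma, 2 at an unadjusted p under 0.05). The falls in the AIN-1 IP included the troponin gene tnc-2 at -3.57 ± 0.87 (limma, adjusted p = 0.0158) and the myosin gene myo-1 at -2.25 ± 0.64 (adjusted p = 0.0329), both among the genes with higher signal in N2 total RNA than in the transgenic totals. The subunit genes of acetylcholine receptors were 14 beside unc-29, of which 2 rose in the AIN-1 IP and 3 in the AIN-2::GFP IP. The preimmune IP had 1 higher, and none fell in these IPs. lev-1, the partner subunit of unc-29 in the levamisole receptor, rose by 3.76 ± 0.76 and 4.25 ± 0.68 (limma, adjusted p = 0.00576 and 0.0021). The receptor subunit gene acr-8 rose by 3.05 ± 0.72 and 3.87 ± 0.64 (limma, adjusted p = 0.0143 and 0.00265). Of 9 muscle genes 2 fell in the preimmune IP and 1 rose in each AIN IP, the neurexin gene nrx-1 at 3.27 ± 0.85 and 3.67 ± 0.75 (limma, adjusted p = 0.0209 and 0.00989). Among other described targets, hbl-1, a heterochronic gene, rose by 2.48 ± 0.51 and 2.79 ± 0.46 (limma, adjusted p = 0.00644 and 0.00245), while vav-1 had 0.86 ± 0.96 and 0.23 ± 0.85 (adjusted p = 0.63 and 0.916). Of 18 tissue markers 6 were called lower against total RNA in the AIN-1 IP. The preimmune IP had 10 lower and the AIN-2::GFP IP had 0, beside 5.65%, 9.17% and 2.72% of all features in the order given. The AIN-2::GFP IP had 1 higher, vit-2 at 2.47 ± 0.52 (limma, adjusted p = 0.0126), where the AIN-1 and preimmune IPs had 0. In either direction, 6 markers had an unadjusted p under 0.05 in the AIN-2::GFP IP (limma).

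The profiles nearest to those of the 7 genes over the 20 samples, by Pearson's r of the normalized log2 signal, were read as descriptions, since all share the same libraries. For egl-1 these were gly-13 (r = 0.959, and 0.917 over the 17 samples without the preimmune IP), kel-1 (0.955 and 0.938) and frpr-15 (0.948 and 0.933). For nhr-25 the list held elt-1 (r = 0.887, and 0.876 without the preimmune IP). For pha-4 they were cdka-1 (r = 0.974, and 0.813 without the preimmune IP), F30H5.3 (0.964 and 0.862) and gcn-2 (0.962 and 0.701). For let-60 the nearest was orc-2 (0.941), for die-1 T03G6.3 (0.956), for mef-2 txt-19 (0.875) and for unc-29 inx-11 (0.860).

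**Figure D4:**
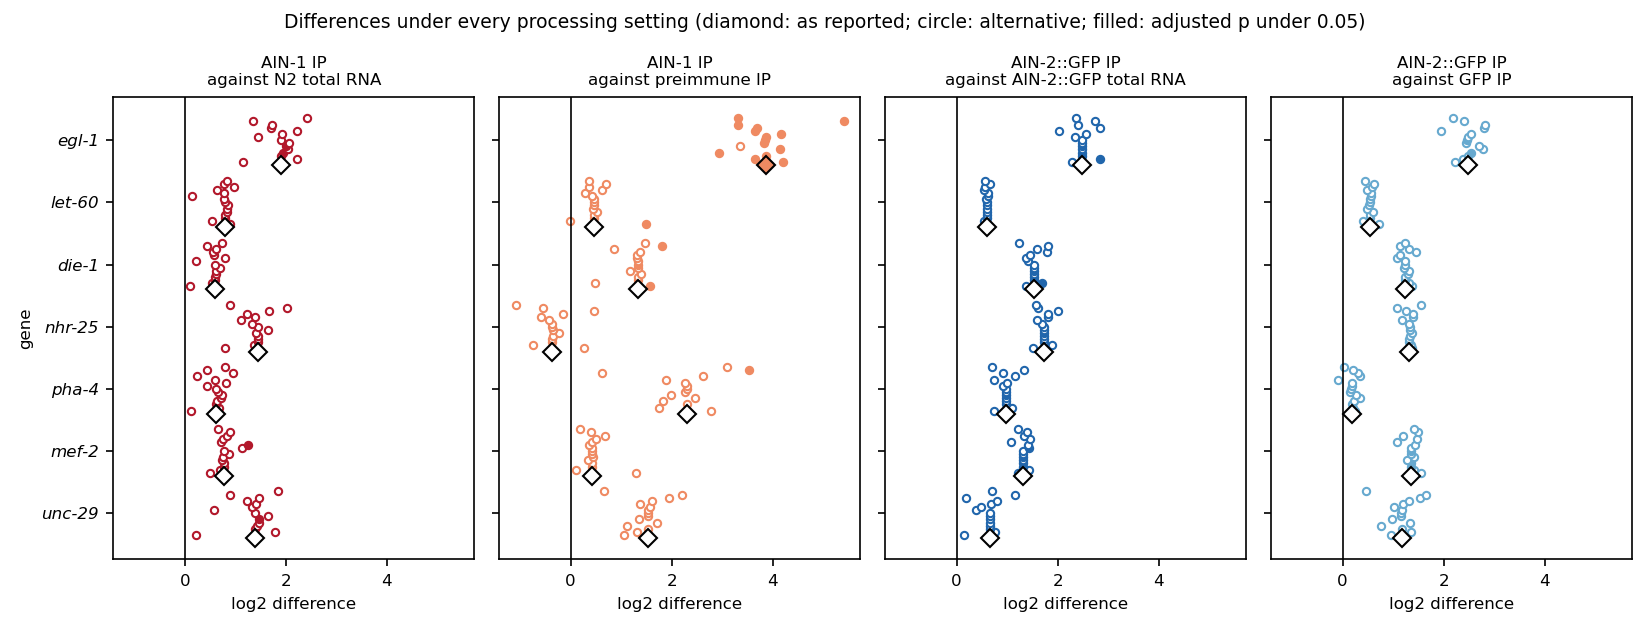
Log2 differences of the 7 genes under each processing alternative (circles) and as reported (diamonds), filled where the adjusted p is under 0.05, in the comparisons of the AIN IPs with total RNA and control IPs. The position of egl-1 over the preimmune IP depends on the floor, at which 2 of its 3 preimmune samples lie, and nhr-25 over the preimmune IP has points on both sides of 0.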

How the data were processed

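The authors deposited spot intensity after background subtraction, scaled to the mean of each sample, as read from the values themselves; scanner and image software are not given in the sources used. Per the labels, RNA went through 1 amplification before Cy3 or Cy5 labelling with flipped dyes, and the design text names the replicates biological and independent. The probe table pairs 17461 of 23232 features with 1 gene and 0 with several, and does not list 5771; 17371 matched the RefSeq gene table by Entrez ID and 0 symbols changed. Intensities were quantile normalized, values below the 10th percentile of positive ones (0.0187 sample means, 32.5% of values) were set to that floor, and features with a mean log2 above the 30th percentile (12222 features, 11812 genes) were kept. limma 3.58.1 in R 4.3.3 fitted 7 group means and the dye over 20 samples, two-sided, with Benjamini-Hochberg adjustment over all features; it was tested on simulated data. The background limit of a sample was the median plus 2 MADs of the normalized values of 1276 chemoreceptor features. Python 3.11.15 and SciPy 1.17.1 made tables and ranks.

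Named genes were the 7 members, for each the 3 features with the highest Pearson's r, and up to 3 genes of each list with the smallest adjusted p in each AIN IP against total RNA. The members and lists were chosen with earlier results of these data known. Replicate numbers were taken to pair samples where every same-numbered pair's deviations from the group means correlated above 0.1: 0.199 to 0.384 for the AIN-1 and preimmune IPs, 0.257 to 0.520 for the GFP IPs and 0.591 to 0.769 for the transgenic totals, but not IPs and totals. Alternatives covered scaling, floor, filter, dye term, samples fitted, replicate block, array set, other totals, each replicate left out and the design text's rank rule.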

Additional observations from a re-analysis of the deposited data

Results flagged for a closer look

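egl-1 differed between groups under the same contrast: its difference from N2 total RNA was 1.90 in the AIN-1 IP and -1.95 in the preimmune IP, and the difference between them, 3.86 ± 0.78, passed in limma (adjusted p = 0.00564). Both differences from total RNA rest on the same N2 samples, which cancel in the difference between them. That difference is the same test as the AIN-1 IP over the preimmune IP given above, and not a further result. Preimmune replicates 1 and 3 were at the floor, and the part of their low array signal in this difference was not tested. Groups of 2 or 3 samples were not tested for single outlying samples.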

How the results depend on the processing

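No direction of a called value reversed, and 113 of 133 counts of genes called under an alternative matched the reported count within 1.5 times. The reported count was 0 except for the AIN-1 IP over the preimmune IP, so most of these matches were of 0 with 0. Over N2 total RNA the AIN-1 IP called 1 of 7 genes with a floor at the 25th percentile, 2 when only those groups were fitted (18.8% of all features called higher) and 1 against the transgenic totals (7.57%). With no replicate left out, from 157 to 2302 of all features were called higher in this comparison, depending on the setting. Over the preimmune IP the AIN-1 IP called 3 with mean scaling (egl-1, let-60 and die-1), 0 when only those groups were fitted (limma, 1 at an unadjusted p under 0.05) and 2 with the replicate block as a random pair. Of all features 10.7%, 0% and 15.1% were called higher in these settings. The preimmune IP against N2 total RNA called 1 lower with mean scaling, beside 19.7% of all features. Over its total the AIN-2::GFP IP called 2 with cyclic loess, 2 with no filter, 3 with the higher floor, 5 when only those groups were fitted (11.2% of all features called higher) and 1 with the array set as a term. With no replicate left out, from 148 to 1365 of all features were called higher in this comparison. Over the GFP IP the AIN-2::GFP IP called 1 with no filter, 2 with the higher floor and 2 with the replicate block as a random pair (5.8% of all features called higher). With no replicate left out, from 0 to 709 of all features were called higher there. For the settings named above without a share of all features, only the ranges are given. Their counts of the 7 genes therefore cannot be set beside the share of all features in the same setting. With single replicates left out, the counts ran from 1 to 3 for the AIN-1 IP over the preimmune IP and from 0 to 1 for the preimmune IP over N2, the latter without preimmune replicate 2 (egl-1) or 3 (nhr-25), and stayed at 0 elsewhere. Of all features, 448 to 1785 were then called higher for the AIN-1 IP over the preimmune IP. For the preimmune IP over N2, 13 to 941 were called higher and 163 to 1799 lower. The design text's rule gave 6 genes for AIN-1 and 6 for AIN-2 in place of 0. A fixed replicate block changed no call of the 7 genes. Mean scaling moved the median of all features from 0.11 to -1.02 in the AIN-1 IP over N2 (the 7 genes then ran from 0.10 to 1.15) and from -0.00 to -0.42 in the AIN-2::GFP IP over its total. Over all features, the number called higher moved from 746 to between 110 and 2302 for the AIN-1 IP over N2, from 1154 to between 0 and 1851 for it over the preimmune IP, from 341 to between 114 and 1365 for the AIN-2::GFP IP over its total and from 363 to between 0 and 727 for it over the GFP IP. The number called lower moved from 691 to between 180 and 1916, from 289 to between 0 and 750, from 332 to between 107 and 1867 and from 155 to between 0 and 329 in the same comparisons. For the preimmune IP over N2 the numbers moved from 476 higher and 1121 lower to between 0 and 941 and between 0 and 2408. For the GFP IP over its total they moved from 1 and 2 to at most 101 and 454, and for the difference of the GFP enrichments from 1 and 2 to at most 121 and 42. The cause of these changes was not tested. The dim control IPs limit what can be resolved, as signals at the floor have no order.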
